A study of Mus musculus with 6 samples.

Results

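The uncoupling protein genes *Ucp1*, *Ucp2* and *Ucp3* were taken from the gene table by their symbols. They are 3 of its 19445 loci, and all 3 passed the expression filter that kept 11692 loci for testing. The table gives FPKM, a count of read fragments divided by transcript length and by library size, in inguinal white adipose tissue (iWAT), the subcutaneous fat pad of the groin, of 6 mice. In 3 of the mice an *Hlx* transgene was driven by the aP2 (*Fabp4*) promoter, which is active in adipocytes. The other 3 were wild-type littermates. All 6 were 12 weeks old and are labelled male, and the transgenic lines came from C57BL/6 × SJL hybrid embryos and were backcrossed to C57BL/6. *Hlx* encodes a homeobox transcription factor, and the comparison asks how a fat-targeted rise of *Hlx* bears on the thermogenic programme of white fat.

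Uncoupling proteins are carriers of the inner mitochondrial membrane. UCP1 lets protons return to the matrix without making ATP, so that the energy of respiration is released as heat, and it is the defining protein of brown adipocytes and of the beige adipocytes that appear in browned white fat. Fatty acids released by lipolysis activate it and purine nucleotides inhibit it. UCP2 is found in many tissues and is abundant in macrophages and lymphocytes. UCP3 is known from skeletal muscle, heart and brown fat, and the transport roles of UCP2 and UCP3 are less settled than that of UCP1.

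In the GENCODE annotation of GRCm38, the build also called mm10, *Ucp1* lies on chromosome 8 from base 83290352 to 83298452, and *Ucp3* and *Ucp2* are neighbours on chromosome 7, from 100472990 to 100486432 and from 100493337 to 100502020. All 3 are on the plus strand, and 6905 bases separate the end of *Ucp3* from the start of *Ucp2*. The main transcripts have 6 exons and 307 codons for *Ucp1*, 8 exons and 309 codons for *Ucp2*, and 7 exons and 308 codons for *Ucp3*. The coding sequences of *Ucp2* and *Ucp3* are identical at 75.8% of aligned bases, and *Ucp1* matches them at 65.7% and 66.2%. The longest stretch that any pair of these mRNAs shares is 24 bases, against reads of 100 bases.

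The proximal promoters are shown because *Ucp1* and *Ucp3* were called higher in transgenic mice and *Ucp2* was not called. They are RefSeq sequences of GRCm38.p6, up to 250 bases before the start site, on the plus strand and cut before the first annotated transcribed base. Capitals mark matches, on either strand, to TAAT, the core letters read by many homeodomain proteins, to TGACG, the core of the cAMP response element, and to AGGTCA, the nuclear receptor half-site. No motif searched contains another.

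*Ucp1* (chr8:83290098-83290347): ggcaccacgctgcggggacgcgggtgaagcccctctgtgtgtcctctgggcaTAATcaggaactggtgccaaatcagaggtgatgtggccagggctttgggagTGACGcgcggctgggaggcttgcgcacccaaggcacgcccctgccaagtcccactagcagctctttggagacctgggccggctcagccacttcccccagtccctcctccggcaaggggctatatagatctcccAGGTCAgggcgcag

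*Ucp2* (chr7:100493108-100493336): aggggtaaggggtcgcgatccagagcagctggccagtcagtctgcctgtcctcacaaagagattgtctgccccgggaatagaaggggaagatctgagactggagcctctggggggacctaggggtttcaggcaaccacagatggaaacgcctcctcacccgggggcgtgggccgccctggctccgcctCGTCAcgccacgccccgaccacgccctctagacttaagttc

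*Ucp3* (chr7:100472741-100472989): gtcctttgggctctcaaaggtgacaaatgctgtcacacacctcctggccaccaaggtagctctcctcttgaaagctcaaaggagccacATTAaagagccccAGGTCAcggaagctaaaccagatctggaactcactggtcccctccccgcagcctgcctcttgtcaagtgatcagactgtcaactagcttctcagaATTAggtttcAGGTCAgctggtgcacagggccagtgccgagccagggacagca

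The *Ucp1* window held 1 match to each of these motifs, with TAAT at -198, TGACG at -147 and AGGTCA at -14, counted in bases from the start site to the first base of the match. The *Ucp2* window held a single match, to TGACG on the minus strand at -62. In the *Ucp3* window there were 2 matches to AGGTCA, at -149 and -44, and 2 to TAAT on the minus strand. Of 32851 mouse promoter windows of 250 bases, 54.9% held TAAT, 17.8% held TGACG and 14.0% held AGGTCA, so TAAT is a common match. None of the 3 windows held TATAAA (12.4% of all windows) or CCAAT (33.8%). The GC content was 64.8% for *Ucp1*, 63.3% for *Ucp2* and 54.6% for *Ucp3*, beside a median of 52.4% over all windows. These matches are letters in a window and were not tested for binding. At *Ucp1* the authors found Hlx by chromatin immunoprecipitation in brown adipocytes at motifs farther upstream, outside the window shown.

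The absolute depth of the libraries is unknown, and the summed FPKM was between 466059 and 542096. *Xist*, the RNA of the inactive X chromosome, was at 20.2 to 33.6 FPKM in all 6 libraries and 0 of 28 Y chromosome loci had a value above 0, although the labels say male. *Hlx*, the targeted gene, was at 110, 79.6 and 99.5 FPKM in transgenic replicates 1, 2 and 3 and at 6.88, 7.35 and 8.14 FPKM in wild-type replicates 1, 2 and 3. The *Hlx* value does not separate the transgene from the native gene. The adipocyte marker *Fabp4* lay between 19297 and 29363 FPKM, and all 7 adipocyte markers were expressed in every library. Of the 7 adipocyte markers, 0 rose and 1, *Adipoq*, fell (named after its value was seen). Over all tested loci 11.6% were called higher and 7.03% lower. *Adipoq* was at 1279 to 1457 FPKM in transgenic and 2084 to 2911 FPKM in wild-type mice. Its log2 difference was -0.85 (limma adjusted p = 0.0172). Of 9 brown adipocyte markers tested, 7 rose and 1, *Lhx8*, fell (named after its value was seen), beside the same shares of all loci. *Cox8b*, a brown fat subunit of cytochrome c oxidase, was at 2855 to 3618 FPKM in transgenic and 424 to 734 FPKM in wild-type mice. *Zic1*, a marker of the classical brown depots, was at 0 in 5 libraries and at 0.00838 FPKM in 1. Because the samples are bulk tissue, fewer cells of a type and less RNA per cell cannot be told apart.

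*Ucp1* was at 634, 541 and 600.1 FPKM in transgenic replicates 1, 2 and 3. In wild-type replicates 1, 2 and 3 it was at 57.8, 17.5 and 35.5 FPKM. Every transgenic mouse was above every wild-type mouse, and the lowest transgenic value was 9.34 times the highest wild-type value. The genotypes did not overlap for 42.9% of the tested loci. The means were 591 ± 47.2 and 36.9 ± 20.2 FPKM (SD, n = 3 each), a ratio of 16.0. On the log2(FPKM + 1) scale *Ucp1* rose by 4.12 (SE 0.38, 95% confidence interval 3.23 to 5.0, limma adjusted p = 0.00106). A difference was called at an adjusted p under 0.05 with the Benjamini-Hochberg method, which 18.6% of the tested loci reached, 11.6% as higher and 7.03% as lower in transgenic iWAT. By size the change of *Ucp1* was number 5 of the 11692 loci tested and number 4 among the rises. The exact permutation test over the 20 arrangements of 6 mice cannot give less than p = 0.1 in this design, and gave 0.1 for each of the 3 genes.

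The wild-type mice differed among themselves in *Ucp1* more than the transgenic mice did. The highest wild-type value was 3.31 times the lowest, against 1.17 times in transgenic mice, and the coefficients of variation were 54.7% and 7.98%. Among all 19445 loci ordered by FPKM, *Ucp1* was between places 122 and 142 in the transgenic libraries and between places 1329 and 4004 in the wild-type libraries. Wild-type replicate 2 held the last of these places and wild-type replicate 1 the nearest to the transgenic range.

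**Figure D1:**
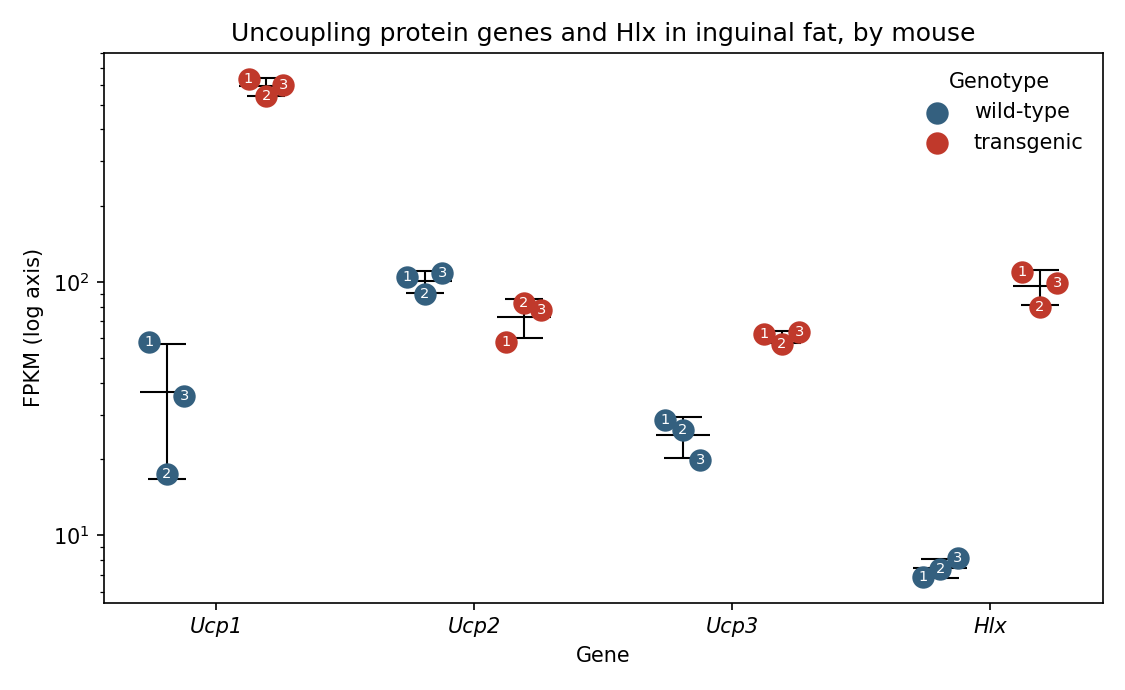
FPKM on a log axis for *Ucp1*, *Ucp2*, *Ucp3* and *Hlx* in each mouse, where a number in a point is the replicate, the line is the mean and the bar is the SD (n = 3). *Ucp1*, *Ucp3* and *Hlx* are higher in every transgenic mouse, and *Ucp2* is lower in every transgenic mouse, with 82.3 FPKM in the highest of them beside 89.5 FPKM in the lowest wild-type mouse. The genotypes do not overlap for 42.9% of all tested loci.

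*Ucp3* was at 62.2, 56.8 and 63.5 FPKM in transgenic replicates 1 to 3 and at 28.6, 26.1 and 19.8 FPKM in wild-type replicates 1 to 3. The groups did not overlap, as for 42.9% of the tested loci, and the transgenic mice lay within 1.12-fold of each other. The means were 60.8 ± 3.54 and 24.8 ± 4.54 FPKM (SD, n = 3 each), a ratio of 2.45. *Ucp3* rose by 1.27 on the log2 scale (SE 0.14, 95% confidence interval 0.95 to 1.60, limma adjusted p = 0.00189), the change number 301 by size.

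Skeletal muscle also expresses *Ucp3*, so muscle markers were set beside it. Summed over the 11 markers found, they reached 115, 801 and 159 FPKM in transgenic replicates 1 to 3 and 9.71, 175 and 48.6 FPKM in wild-type replicates 1 to 3, with *Acta1*, skeletal muscle actin, the highest of them. The groups overlapped, all 10 markers tested were higher on average in transgenic mice, and 0 of 10 were called by limma (2 at an unadjusted p under 0.05, both higher). Over all tested loci 11.6% were called higher and 7.03% lower. In the fit with the replicate number as a block, 8 of the 10 were called higher, beside 1230 of all 11692 loci tested. *Myh7*, the slow myosin heavy chain, was at or near 0 in all libraries. From lowest to highest, the transgenic replicates were ordered 1, 3, 2 by marker sum and 2, 1, 3 by *Ucp3*. The wild-type replicates were ordered 1, 3, 2 by marker sum and 3, 2, 1 by *Ucp3*. Leaving out 1 mouse at a time, *Ucp3* was higher by 1.13 to 1.38 on the log2 scale, and by 1.32 without transgenic replicate 2 (limma adjusted p = 0.00572). That last fit keeps transgenic replicates 1 and 3, with marker sums of 115 and 159 FPKM. The part of muscle in the *Ucp3* difference was not tested.

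*Ucp2* had the opposite direction. It was at 58.2, 82.3 and 77.3 FPKM in transgenic replicates 1 to 3 and at 105, 89.5 and 108 FPKM in wild-type replicates 1 to 3. Each transgenic mouse was below each wild-type mouse, but the nearest values differed by 1.09-fold only. A lack of overlap, in either direction, was seen for 42.9% of the tested loci. The means were 72.6 ± 12.7 and 101 ± 9.87 FPKM (SD, n = 3 each), a ratio of 0.72. The log2 difference was -0.48 (SE 0.15, 95% confidence interval -0.83 to -0.13) and missed the threshold, with a limma p of 0.0143 before and 0.0644 after adjustment. It passed when the columns were quantile normalized (-0.59, adjusted p = 0.0437) or rescaled to a common sum (-0.58, adjusted p = 0.0480). Over the 15 alternatives its adjusted p ranged from 0.0437 to 0.177. Rescaling to a common sum also moved the calls over all loci from 1352 higher and 822 lower to 1070 higher and 1164 lower.

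Macrophage markers were lower in transgenic mice as well. Their sum over 10 genes was 689, 1017 and 716 FPKM in transgenic replicates 1 to 3 and 1393, 1222 and 1669 FPKM in wild-type replicates 1 to 3, so these groups did not overlap either. Of the 10 genes, 5 fell (*Lyz2*, *Cd68*, *Csf1r*, *Cd163* and *Adgre1*, of which all but *Lyz2* were named after their values were seen) and 0 rose (10 were lower and 0 higher at an unadjusted p under 0.05), with a median log2 difference of -0.61, and none was at 0. Over all tested loci 7.03% were called lower and 11.6% higher, with a median log2 difference of -0.01. *Lyz2*, lysozyme of myeloid cells and the highest of these markers, fell by 1.10 on the log2 scale (adjusted p = 0.00823). The order of the wild-type mice was the same for *Ucp2* and the macrophage sum, and among transgenic mice replicate 1 was lowest and replicate 2 highest for both. Lymphocyte markers gave 266 to 401 FPKM in transgenic and 378 to 533 FPKM in wild-type mice, and 2 of 11 fell, the B cell genes *Ms4a1* and *Cd22*, named after their values were seen. The part of these cells in the *Ucp2* difference was not tested.

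**Figure D2:**
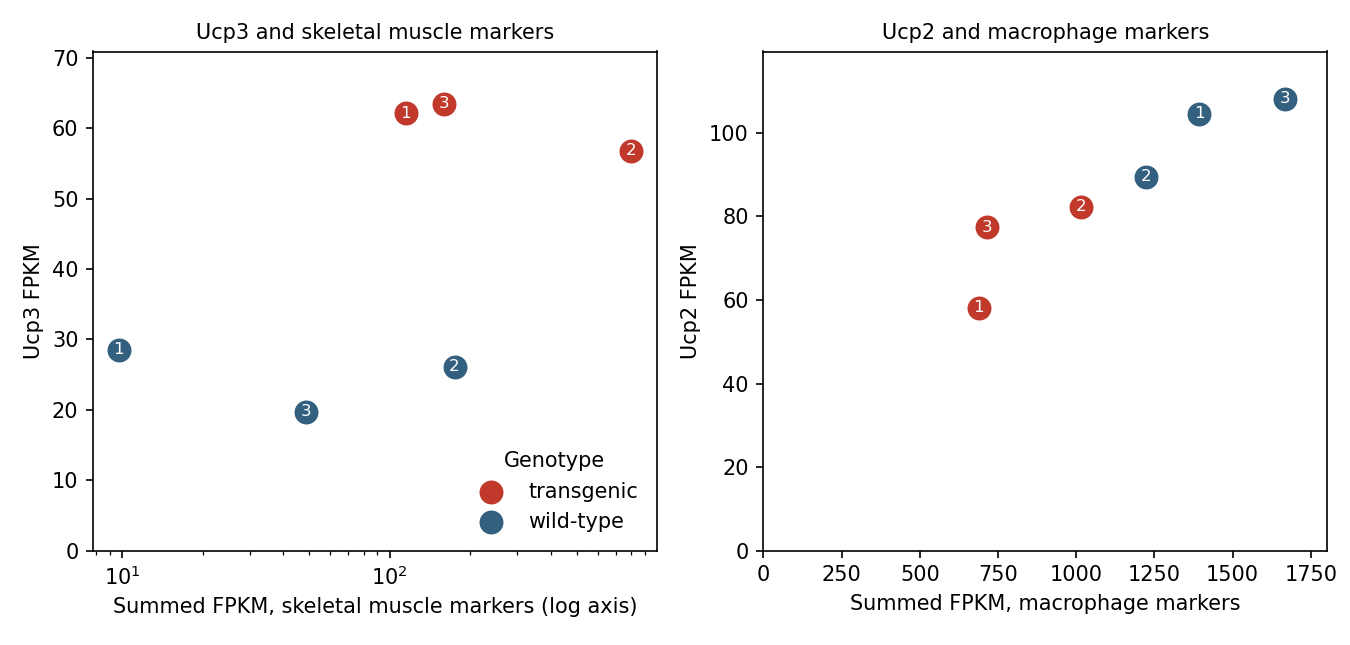
*Ucp3* FPKM against the summed FPKM of skeletal muscle markers on a log axis (left) and *Ucp2* FPKM against that of macrophage markers (right), where each point is a mouse and the number in it is the replicate. The muscle marker sums of the genotypes overlap, between 9.71 and 175 FPKM in wild-type and between 115 and 801 FPKM in transgenic mice, and the macrophage sums do not, and the part of either cell type in the *Ucp3* and *Ucp2* differences was not tested.

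The order of the genes by FPKM, a measure per transcript length, differed between the genotypes. In wild-type iWAT *Ucp2* was highest in each mouse, and the values of *Ucp1* and *Ucp3* overlapped, with *Ucp1* at 2.03, 0.670 and 1.80 times *Ucp3* in replicates 1 to 3. In transgenic iWAT *Ucp1* was highest in each mouse, and the ranges of *Ucp2* and *Ucp3* overlapped. *Ucp1* supplied 84.0%, 79.5% and 81.0% of the summed FPKM of the 3 genes in transgenic replicates 1 to 3 and 30.3%, 13.1% and 21.7% in wild-type replicates 1 to 3. The means of 81.5% ± 2.30 and 21.7% ± 8.58 (SD, n = 3 each) differed by 59.8 percentage points. The share of *Ucp2* was 10.1% ± 2.22 in transgenic and 62.7% ± 6.93 in wild-type mice. The summed FPKM of the 3 genes was 725 ± 39.7 and 162 ± 28.9, a ratio of 4.46.

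Within single mice the *Ucp1* to *Ucp2* ratio was 10.9, 6.57 and 7.76 in transgenic and 0.553, 0.195 and 0.328 in wild-type replicates 1 to 3. Every transgenic mouse had more *Ucp1* than *Ucp2* and every wild-type mouse less, and the ratio differed 25-fold on average between the genotypes. The *Ucp1* to *Ucp3* ratio was between 9.45 and 10.2 in the transgenic mice, a narrow range, and 7.22-fold lower on average in the wild-type mice. The *Ucp3* to *Ucp2* ratio was 1.07, 0.690 and 0.821 against 0.273, 0.292 and 0.183, or 3.46-fold higher in transgenic mice. No genotype groups overlapped in any of these ratios, and the two-sided exact permutation p was 0.1 for each (0.1 after adjustment over the 3 ratios), the smallest that 3 against 3 mice allow.

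**Figure D3:**
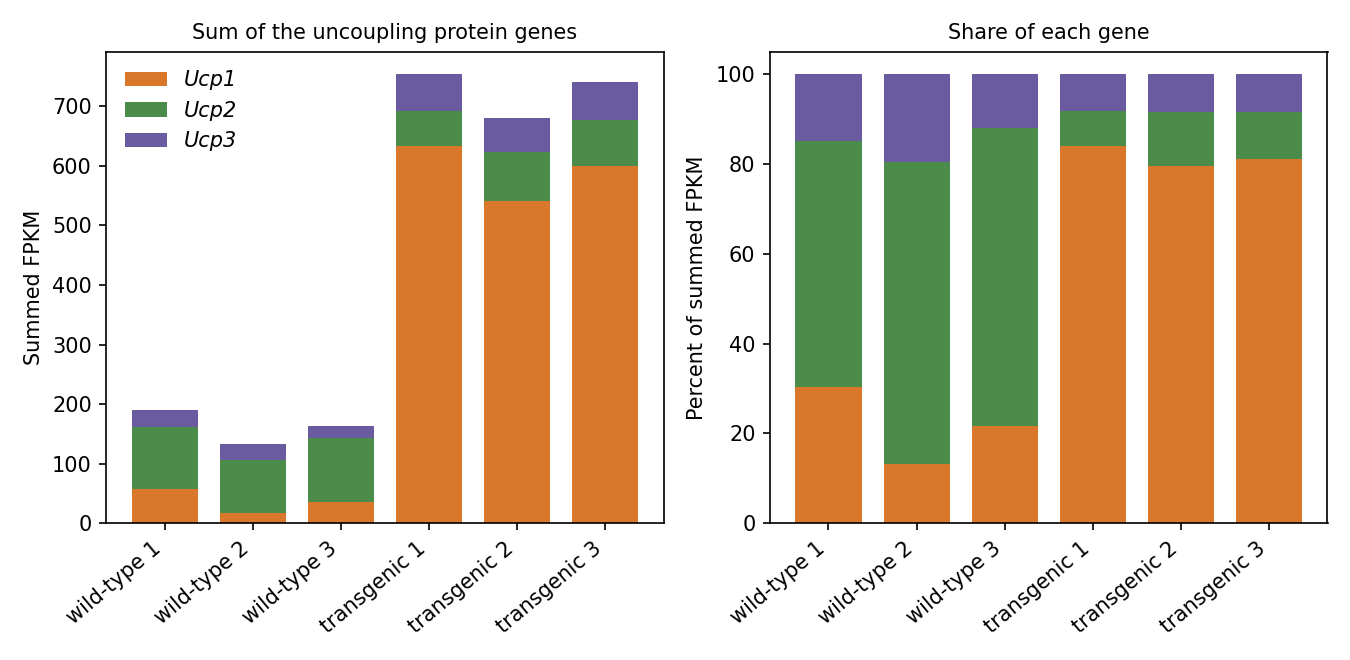
Stacked bars of *Ucp1*, *Ucp2* and *Ucp3* for each mouse, as FPKM (left) and as percent of their sum (right). The sum lies between 133 and 191 FPKM in wild-type and between 680 and 754 FPKM in transgenic mice, where *Ucp1* takes 79.5% to 84.0% of it.

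Since uncoupling proteins reside in mitochondria, their levels were also set against 20 nuclear genes for other mitochondrial proteins. Of these, 19 rose, 0 fell and 1 was not called, with a median log2 difference of 1.17 beside -0.01 over all tested loci. The shares of all tested loci called were 11.6% higher and 7.03% lower. *Uqcrc1*, a complex III core protein, rose by 1.65 and *Ndufv1*, a complex I subunit, by 1.63, while *Tomm20*, an outer membrane import receptor, differed by 0.11 (adjusted p = 0.339). The mean log2 FPKM of the list was 8.28 ± 0.19 in transgenic and 7.12 ± 0.13 in wild-type mice (SD, n = 3 each), a 2.24-fold difference.

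Relative to this list *Ucp3* was at -2.53, -2.30 and -2.25 in transgenic and at -2.42, -2.40 and -2.69 in wild-type replicates 1 to 3, on the log2 scale. These values overlapped, and the difference of 0.14 was smaller than the SD within either genotype (0.15 and 0.16; two-sided exact permutation p = 0.4). *Ucp1* exceeded the list by 0.82, 0.95 and 0.99 in transgenic mice and was below it by a mean of -2.07 ± 0.81 in wild-type mice, so that it was 7.98-fold higher relative to the list. *Ucp2* was at -0.47 ± 0.21 in wild-type and -2.12 ± 0.45 in transgenic mice relative to the list, without overlap. For *Ucp1* and *Ucp2* the exact permutation p was 0.1, or 0.15 after adjustment over the 3 genes. Against the 7 adipocyte markers, whose mean differed by -0.15 between the genotypes, *Ucp1* differed by 4.31, *Ucp3* by 1.46 and *Ucp2* by -0.34, and only for *Ucp2* did the genotypes overlap. Within that marker list *Adipoq* fell and 6 genes were not called.

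**Figure D4:**
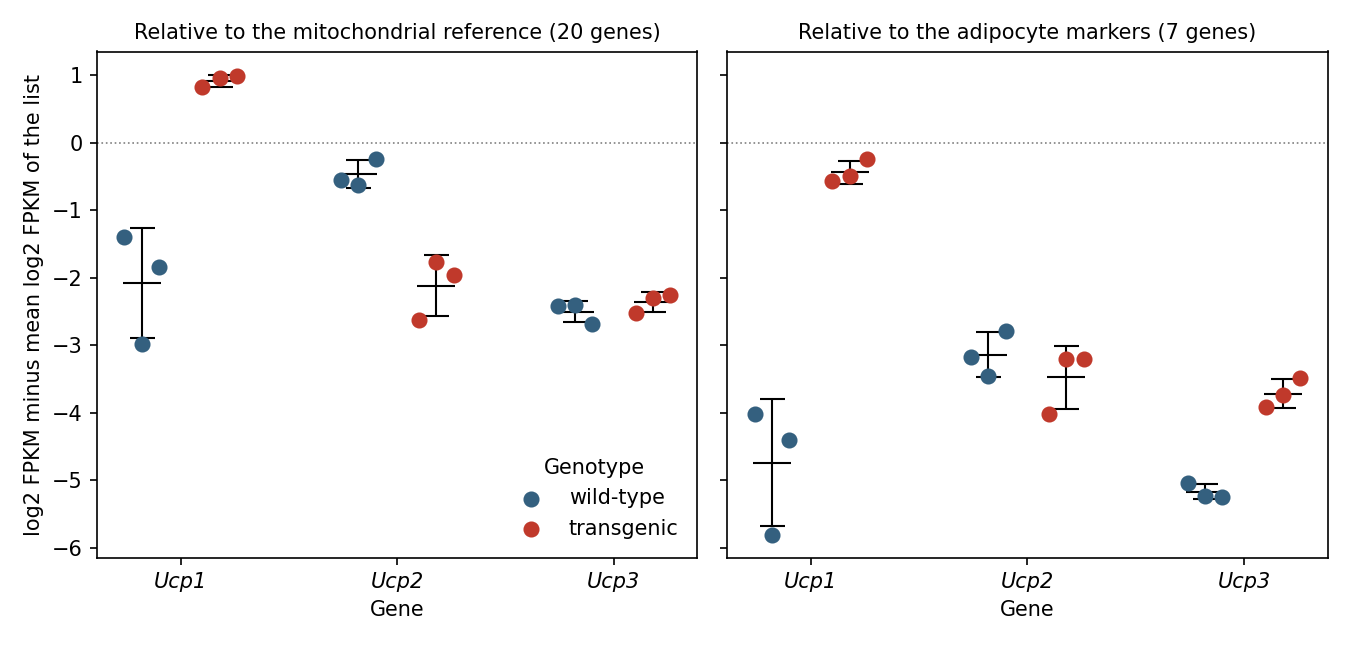
log2 FPKM of each uncoupling protein gene minus the mean log2 FPKM of the 20 mitochondrial reference genes (left) or of the 7 adipocyte markers (right), by mouse, with the mean and SD (n = 3). *Ucp3* overlaps between the genotypes on the left, at means of -2.36 and -2.50, and is apart on the right, while *Ucp1* is apart in both panels.

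The uncoupling proteins have relatives among the other carriers of the same membrane. Of 8 such genes, 6 passed the filter, 1 rose and 0 fell, beside 11.6% and 7.03% of all loci. At an unadjusted p under 0.05, 3 were higher and 0 lower, and the median log2 difference was 0.15 beside 4.12 for *Ucp1*. The riser was *Slc25a11*, the oxoglutarate carrier, by 0.64 (adjusted p = 0.00701). *Slc25a4*, the adenine nucleotide carrier ANT1, was at 353 to 438 FPKM in transgenic and 250.2 to 297 FPKM in wild-type mice without overlap, but its difference of 0.45 was not called (adjusted p = 0.0506, and 0.0436 to 0.0467 in the 3 alternatives that called it). *Slc25a5*, or ANT2, differed by 0.08, *Slc25a10*, the dicarboxylate carrier, by -0.44, *Slc25a30* by 0.23 and *Slc25a14* by 0.07, none of them called (*Slc25a10* was called only with a replicate block, adjusted p = 0.0397). *Slc25a27*, which encodes the brain carrier UCP4, reached at most 1.17 FPKM in any mouse, and *Slc25a31*, the testis ANT, at most 0.0549 FPKM.

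The signal that acts on *Ucp1* in fat runs from noradrenaline through beta-adrenergic receptors, cAMP and protein kinase A. Of 12 genes of this route, 6 rose, 1 fell and 5 were not called, beside 11.6% and 7.03% of all loci. *Adrb1*, the beta-1 receptor, rose from 1.34 to 1.81 FPKM in wild-type to 3.94 to 8.60 FPKM in transgenic mice (log2 difference 1.36, adjusted p = 0.00971). *Adrb3*, the receptor that dominates in rodent white adipocytes, fell by 0.71 (adjusted p = 0.0384) and remained the more abundant of the pair, at 74.2 to 127 FPKM. The protein kinase A subunits *Prkar2b* (1.13) and *Prkaca* (0.78) rose, whereas *Prkacb* (0.09) and the transcription factor *Creb1* (-0.18) were not called. *Adrb3* lost its call when any single mouse other than transgenic replicate 2 was left out (adjusted p 0.0631 to 0.103) or the filter was dropped (0.0648), and *Prkaca* without wild-type replicate 3 (adjusted p = 0.0522).

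Of 17 tested activators of *Ucp1* transcription, 6 rose, 1 fell and 10 were not called, beside 11.6% higher and 7.03% lower over all loci. *Ppara*, the nuclear receptor of fatty acid oxidation, was at 27.1, 27.8 and 43.0 FPKM in transgenic and at 6.17, 2.54 and 4.85 FPKM in wild-type replicates 1 to 3, without overlap, as for 42.9% of the tested loci. It rose by 2.63 (adjusted p = 0.00192), the coactivator *Ppargc1b* by 1.49, the orphan receptor *Esrrg* by 1.44 and *Prdm16*, a brown fate coregulator, by 0.73. *Esrrg* was low, at 2.07 to 3.62 FPKM in transgenic and 0.341 to 0.473 FPKM in wild-type mice, so the log2(FPKM + 1) scale understates its change. The ratio of its means was 7.04, beside 7.21 for *Ppara* and 3.32 for *Ppargc1b*. *Prdm16* lost its call without transgenic replicate 3, wild-type replicate 2 or wild-type replicate 3 (adjusted p 0.0658 to 0.0862). *Rxra*, the partner of nuclear receptors, fell by 0.51 and was named after its value was seen. *Irf4* (-0.66) and *Dio2* (-0.37), which makes active thyroid hormone in brown fat, were not called, and *Dio2* was at 3.66 FPKM or less in every mouse.

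Of 7 tested repressors of *Ucp1*, 1 fell, 1 rose and 5 were not called, with a median log2 difference of -0.35 (at an unadjusted p under 0.05, 5 were lower and 1 higher). Over all tested loci 7.03% were called lower and 11.6% higher, and the median log2 difference was -0.01. *Nrip1*, the corepressor RIP140, was at 5.22, 13.8 and 11.9 FPKM in transgenic and at 26.4, 25.8 and 23.3 FPKM in wild-type replicates 1 to 3. It fell by 1.30 (adjusted p = 0.0273), and *Rb1*, the retinoblastoma protein, rose by 0.43 (adjusted p = 0.0310). *Tle3* (-0.43) and *Foxp1* (-0.41) were not called. *Rb1* lost its call when any single mouse other than transgenic replicate 2 was left out (adjusted p 0.0697 to 0.1) or the columns were rescaled to a common sum (0.0644). *Nrip1* lost it without transgenic replicate 3 or any single wild-type mouse (adjusted p 0.0528 to 0.0738) or with the filter dropped (0.0539).

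Fatty acids are the fuel and the activator of UCP1. Of 12 genes that release, bind or import them, 3 rose, 1 fell and 8 were not called, beside 11.6% higher and 7.03% lower over all loci. *Fabp3*, a fatty acid binding protein of heart and brown fat, rose by 3.03, *Slc25a20*, the acylcarnitine carrier, by 1.77 and *Cpt2*, the acyltransferase of the inner mitochondrial membrane, by 1.30, with adjusted p from 0.00102 to 0.00204. *Lpl*, lipoprotein lipase, fell by 0.67 (adjusted p = 0.0209) but lost its call without transgenic replicate 1 or 3 or wild-type replicate 1 or 2 (adjusted p 0.0548 to 0.0805) or with the filter dropped (0.0723). *Fabp5* (-0.39) and *Cpt1a* (-0.28) were not called.

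**Figure D5:**
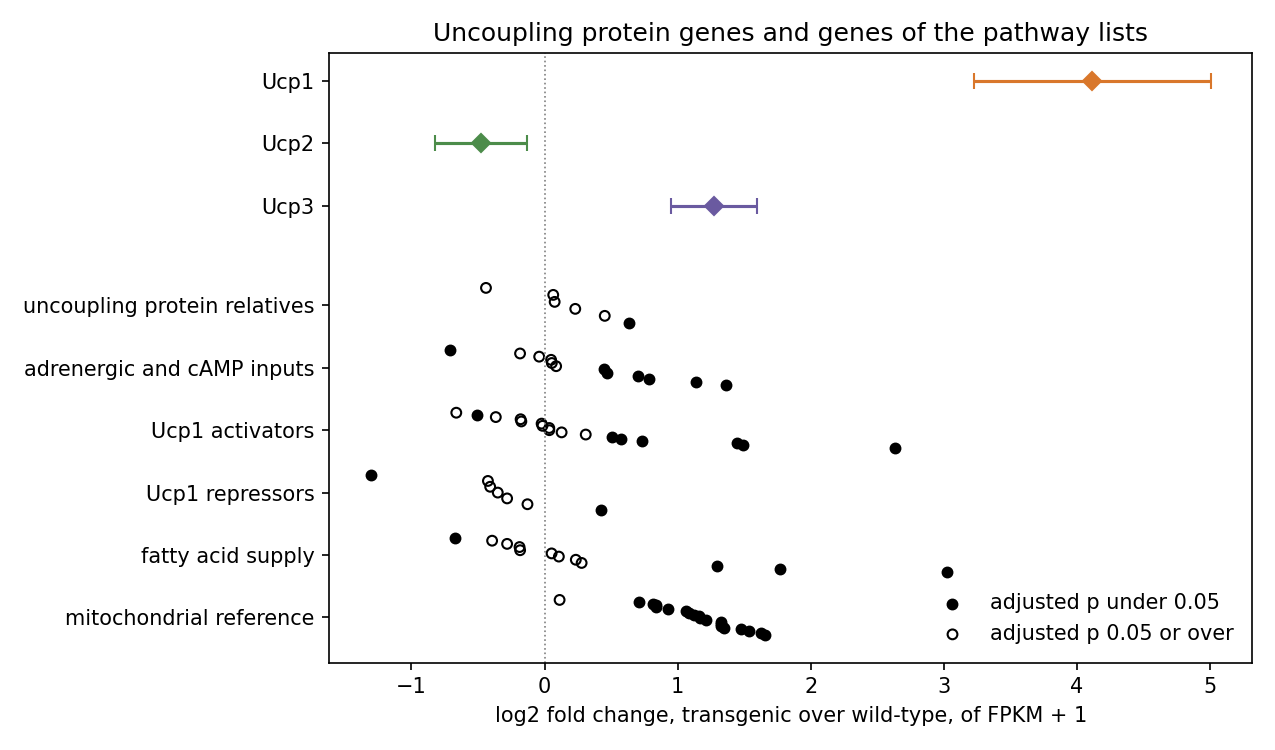
log2 fold change, transgenic over wild-type, of FPKM + 1 for the uncoupling protein genes with 95% confidence intervals (diamonds) and for each tested gene of 6 lists (circles, filled at a limma adjusted p under 0.05). *Ucp1* at 4.12 lies to the right of all genes shown, the largest other value being that of *Fabp3* at 3.03. Of the 20 mitochondrial reference genes 19 are filled and positive, beside 11.6% of all tested loci called higher.

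None of the tested loci next to *Ucp1* was called. *Tbc1d9* and *Rnf150*, at lower coordinates, differed by -0.27 and 0.14, and *Elmod2*, 14175 bases beyond *Ucp1*, by 0.12. *Clgn*, farther on the same side, was at 0.156 FPKM or less in all mice and was not tested. Around the *Ucp3* and *Ucp2* pair, *C2cd3* differed by -0.06, *Chchd8* by 0.36 and *Rab6a* by 0.21, also uncalled. *Ppme1*, 101094 bases before *Ucp3*, rose by 0.28 (adjusted p = 0.0345) and lost this call when any single mouse was left out (adjusted p 0.0508 to 0.104) or the columns were rescaled to a common sum (0.199). The table gives *Ucp2* and *Dnajb13* the same coordinates, which end 12795 bases beyond the annotated end of *Ucp2*. *Dnajb13* was at 2.73 to 5.28 FPKM in transgenic and 2.07 to 3.17 FPKM in wild-type mice, far below *Ucp2*.

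The genes whose pattern over the 6 mice was most like that of each uncoupling protein gene were ranked by the root mean square difference of log2(FPKM + 1), centred on each gene's mean, and no test was made because the ranking uses the same values. For *Ucp1* the nearest were *Phospho1*, *Cox7a1*, *Cidea*, *Adck3* and *Pdk4*, at 0.33 to 0.51. *Cox7a1* and *Cidea* are brown adipocyte markers, *Phospho1* encodes a phosphatase of phosphocholine, *Adck3* a protein of coenzyme Q synthesis and *Pdk4* a kinase that inhibits pyruvate dehydrogenase. *Phospho1* was at 253, 164 and 199 FPKM in transgenic and at 13.7, 8.47 and 10.4 FPKM in wild-type mice, which gave the same log2 difference as *Ucp1*, 4.12, with less spread among wild-type mice.

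For *Ucp3* the nearest were *Akap1*, *Lyrm5*, *Cib4*, *Hlf* and *Coq10a*, at 0.07 to 0.09, and all 5 were higher in each transgenic mouse. *Akap1* encodes an anchor of protein kinase A on the mitochondrial surface and *Coq10a* a coenzyme Q binding protein. *Akap1* was at 83.1, 71.9 and 86.2 FPKM in transgenic and at 34.3, 31.4 and 25.5 FPKM in wild-type replicates 1 to 3, and the mice had the same order as for *Ucp3* within each genotype.

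For *Ucp2* the nearest were *Bace2*, *Colec12*, *Lima1*, *Anpep* and *Iqgap2*, at 0.04 to 0.06, with log2 differences between -0.47 and -0.41 and none called. *Anpep*, an aminopeptidase of myeloid and stromal cells, was at 17.3, 25.6 and 21.9 FPKM in transgenic and at 32.4, 25.8 and 30.9 FPKM in wild-type mice. As for *Ucp2*, transgenic replicate 1 was the lowest of all mice and transgenic replicate 2 came nearest to the wild-type range.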

How the data were processed

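RNA-Seq of iWAT from 3 *Hlx* transgenic and 3 wild-type mice was analysed, with groups taken from the sample labels. The authors extracted RNA with TRIzol, prepared TruSeq libraries and sequenced single reads of 100 bases. The submitters' processing notes name CASAVA 1.8.2, TopHat2 2.0.9, Bowtie2 2.1.0, Cufflinks 2.2.1 and mm10. The authors deposited FPKM per gene and mouse. Counts were not used here, the absolute depth is unknown, and precision is judged from the spread between 3 mice a group.

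A locus was kept if either genotype had an average FPKM above 1, which left 11692 loci, and log2(FPKM + 1) was tested with limma 3.58.1 in R 4.3.3 (eBayes with trend, two-sided, Benjamini-Hochberg adjustment over all loci tested). A fold change on this scale understates the change of low genes. The procedure was also run on simulated data built from the means and residual spread of these data. Of 11692 simulated loci, 100 were changed 2-fold and 100 were changed 3-fold, a smaller share than the 18.6% called in the real data. The procedure recovered 76% of loci changed 2-fold and 98% of those changed 3-fold, and 4.40% of its calls were unchanged loci. A larger share of changed loci was not simulated, and these figures may differ there. Changes smaller than 2-fold were not simulated. Ratios, shares and levels relative to a list used FPKM without a pseudocount and two-sided exact permutation tests over 20 arrangements. Where a symbol was on several loci (409 symbols), the locus with the highest mean was used. Of the list genes, *Esrra*, *Nr1h3*, *Pnpla2*, *Tnnt3*, *Cd79a* and *Krt14* are listed only jointly with a neighbouring gene and were left out, and *Cpt1b* and *Tmem26* were not analysed here.

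The uncoupling protein genes, the lists and the tests were chosen with earlier results of these data known. Named genes were chosen by rule: of each pathway list up to 4 called members with the largest change and the 2 uncalled ones with the largest, all carrier relatives, the 2 nearest loci on each side, the 5 loci of nearest pattern, and the highest marker of each list. Alternatives were a pseudocount of 0.1, the filter dropped or applied to the average of the 6 mice, quantile normalization, median-ratio scaling, columns rescaled to a common sum, eBayes run with no trend, quality weights per sample, a block for the replicate number, a threshold of 0.01, and each mouse left out in turn. Promoters came from RefSeq, gene models from GENCODE, and coding sequences were aligned with Biopython 1.88. Figures were drawn with matplotlib 3.10.9 in Python 3.11.15.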

Additional observations from a re-analysis of the deposited data

How the results depend on the processing

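The higher level of *Ucp1* and of *Ucp3* was called in all 15 alternatives of the limma test, with log2 differences of 3.67 to 4.51 for *Ucp1* and 1.13 to 1.38 for *Ucp3* when 1 mouse was left out. *Ucp2* was called under quantile normalization (-0.59) and with columns rescaled to a common sum (-0.58) and in no other alternative, and leaving out 1 mouse gave -0.57 to -0.33. With the replicate number as a block the log2 differences stayed at 4.12 for *Ucp1* (adjusted p = 0.00445), -0.48 for *Ucp2* (0.0959) and 1.27 for *Ucp3* (0.00965), and 1230 loci were called higher and 656 lower. The deviations of same-numbered mice correlated at 0.013, 0.034 and 0.070, and those of different-numbered mice at -0.186 to 0.135. The numbers were therefore not taken to pair the mice. These correlations do not settle pairing for single genes, and the SE of *Acta1* went from 1.03 to 0.14 with the block. The block also removed the calls of *Adrb3* (0.0514), *Rb1* (0.0542) and *Ppme1* (0.0588) and added those of *Slc25a10* (0.0397) and *Acta1* (0.00367), with 8 of 10 skeletal muscle markers then called higher, while macrophage markers called lower went from 5 to 3 and endothelial markers called higher from 2 to 0.

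Over all loci the calls were 1352 higher and 822 lower, and 569 and 199 at an adjusted p under 0.01. Leaving out 1 mouse gave 780 to 1295 higher and 329 to 906 lower. Fewer mice enter those fits. Rescaling to a common sum shifted the median log2 difference of all loci to -0.11, and quantile normalization gave 1300 higher and 1083 lower.

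With adipocyte markers in place of the mitochondrial list, the relative differences became 4.31 for *Ucp1*, -0.34 for *Ucp2* and 1.46 for *Ucp3*, since the adipocyte list itself differed by -0.15 and the mitochondrial list by 1.17. Leaving out 1 mouse kept the direction of these and of the ratios between the uncoupling protein genes: 2.54 to 3.33 for *Ucp1*, -1.83 to -1.39 for *Ucp2* and 0.05 to 0.23 for *Ucp3* relative to the mitochondrial list, 4.27 to 5.02 for *Ucp1* to *Ucp2*, 2.35 to 3.15 for *Ucp1* to *Ucp3* and 1.58 to 1.94 for *Ucp3* to *Ucp2*. The *Ucp1* share differed by 55.5 to 64.1 percentage points.

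Genes named after their values were seen are not counted here. Of 33 called genes picked by the naming rule, with *Hlx* among them, 26 kept the call in all alternatives and 0 changed sign. Of 32 that were not called, 9 gained a call in at least 1 alternative: *Slc25a4* and *Cd79b* in 3 each, and *Slc25a10*, *Irf4*, *Chchd8*, *Rab6a*, *Anpep*, *Acta1* and *Krt18* in 1 each. Small uncalled differences changed sign for 6 genes. *Slc25a5* was at -0.25 under quantile normalization, at -0.023 with columns rescaled to a common sum and at -0.0077 to 0.19 with 1 mouse left out, and *Slc25a14* was at -0.0069 under that rescaling and at -0.012 to 0.16 with 1 mouse left out. *Prkacb* was at -0.0083 under that rescaling. With 1 mouse left out, *Rnf150* ranged from -0.11 to 0.30, *Elmod2* from -0.012 to 0.30 and *Pecam1* from -0.20 to 0.0037.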

Other observations

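Markers of other cell types, summed for each mouse, were set beside the uncoupling protein genes. The 6 endothelial markers gave 149 to 158 FPKM in transgenic and 133 to 143 FPKM in wild-type mice, without overlap. Of them 2, *Kdr* and *Emcn* (named after their values were seen), rose and 0 fell, beside 11.6% and 7.03% of all tested loci. *Pecam1*, the highest, differed by -0.09 (adjusted p = 0.632). The 5 epithelial markers found gave 76.0 to 153 FPKM in transgenic and 115 to 177 FPKM in wild-type mice, and none was called by limma (1 lower at an unadjusted p under 0.05), *Krt18* being the highest. Of the 4 beige adipocyte markers found, none was called by limma either (1 lower at an unadjusted p under 0.05), and *Cited1*, the highest, was at 6.17, 20.5 and 26.2 FPKM in transgenic and at 42.1, 34.6 and 15.7 FPKM in wild-type replicates 1 to 3. *Cited1* thus overlapped between genotypes whose *Ucp1* values lay 9.34-fold apart. Among lymphocyte markers the B cell gene *Cd79b* was highest, at 54.6 to 81.8 FPKM in transgenic and 87.2 to 151 FPKM in wild-type mice, with a log2 difference of -0.74 that was not called (adjusted p = 0.0609).

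Wild-type replicate 2 had the lowest *Ucp1*, 17.5 FPKM, beside 26.1 FPKM of *Ucp3*, and it was the only mouse with less *Ucp1* than *Ucp3*.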
